A study of Arabidopsis thaliana with 6 samples.

Results

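Transcripts of 6 Arabidopsis thaliana genes of carbon fixation and photorespiration were followed in seedlings: RCA (AT2G39730), SBPASE (AT3G55800) and PRK (AT1G32060) of the Calvin cycle, and HPR1 (AT1G68010), GLDT (AT1G11860) and GLYK (AT1G80380) of photorespiration. They were chosen by function, with earlier results of these data known, and are 6 of the 7234 genes with a named feature on the array. A further 4 photorespiration genes with a named feature were measured and are not among the 6. All 6 have a single feature each. Whole seedlings of the Col-0 wild type kept in red light throughout, at a fluence rate of 24 μmol m-2 s-1, filled 3 arrays, and dark-grown seedlings of the mutant pifQ, also written pif3pif4pil5pil6, filled the other 3. The mutant lacks 4 PHYTOCHROME-INTERACTING FACTOR (PIF) transcription factors. In both groups, seeds on medium with 1% sucrose spent 3 days at 4 °C in darkness and then 6 h in white light (100 μmol m-2 s-1), and seedlings were collected after 60 h in red light or darkness. Dark-grown Col-0 of the same age was the second channel of every array, so each value is a log2 ratio of a sample over dark-grown Col-0, and 0 means the same signal as in that control. The sources used here do not state the log base, which was taken as 2. The labels describe each replicate as grown and harvested separately, and name no second pifQ line.

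In the Calvin cycle, Rubisco joins carbon dioxide to a sugar bisphosphate in the chloroplast stroma, and the other enzymes of the cycle rebuild that acceptor. When Rubisco takes oxygen in place of carbon dioxide, photorespiration passes the product through peroxisomes and mitochondria and returns glycerate to the chloroplast. Seedlings raised in darkness have etioplasts and do not photosynthesise. Red light acts through phytochrome, which binds PIFs and leads to their breakdown, and PIFs are known to hold back photosynthesis genes in darkness.

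The arrays of the 2 groups were not equally alike. Pairs of red light arrays correlated over all 7234 genes at r = 0.812 to 0.913 and pairs of pifQ arrays at 0.423 to 0.615, a description across genes, which are not independent replicates. The pifQ replicate 3 correlated at 0.506 and 0.423 with pifQ replicates 1 and 2 and at 0.593 to 0.695 with the red light arrays. With the red light arrays, pifQ replicate 1 correlated at 0.561 to 0.591 and pifQ replicate 2 at 0.453 to 0.546. These values too were above their correlations with pifQ replicate 3. Replicates 1 and 2 of pifQ correlated with each other at 0.615. For the 7 genes with at least 10 spots each, the spots of a gene differed with a mean SD of 0.049 to 0.065 in red light, and of 0.177, 0.234 and 0.068 on pifQ replicates 1, 2 and 3. Results that rest on pifQ replicate 3 are given with and without it.

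In red light, all 3 measured Calvin cycle genes were higher than in dark-grown Col-0, RCA most of all. RCA encodes Rubisco activase, which frees the active sites of Rubisco from bound sugar phosphates. Its log2 ratio was 3.72, 3.59 and 3.74 on red light replicates 1, 2 and 3. These values lie close together, and their mean of 3.68 ± 0.08 (SD, n = 3 arrays, as for all errors written with ±) equals a 12.9-fold increase, with a 95% confidence interval of 8.60 to 19.2 (limma, adjusted p = 3.32e-05). Of all genes, RCA had the 12th highest mean ratio in red light.

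SBPASE encodes sedoheptulose bisphosphatase, an enzyme of the regenerating steps that is switched on through thioredoxin. It stood at 1.54, 1.50 and 0.97 on the same arrays. All 3 values were above 0, with replicate 3 lowest, and the mean of 1.34 ± 0.32 is a 2.53-fold increase (95% interval 1.68 to 3.81, limma adjusted p = 0.00438). PRK encodes phosphoribulokinase, which makes the acceptor that Rubisco uses. It stood at 1.12, 0.98 and 0.71, in the same order over the arrays as SBPASE, and rose 1.91-fold (log2 0.94 ± 0.21, 95% interval of the fold 1.30 to 2.82, adjusted p = 0.0170 by limma). The PRK call ended without red light replicate 1 (log2 0.84, adjusted p = 0.0963 by limma), without red light replicate 2 (0.91, 0.074), with arrays scaled to a common spread (0.82, 0.0507), with quantile normalization (0.76, 0.0962) and with all 45220 features tested (0.94, 0.0619).

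The 3 photorespiration genes also rose in red light, HPR1 by the most. HPR1 encodes the peroxisomal hydroxypyruvate reductase, which makes glycerate. Its log2 ratio was 1.75, 1.41 and 1.56 on red light replicates 1, 2 and 3, a 2.98-fold increase (mean 1.58 ± 0.17, 95% interval of the fold 2.19 to 4.06, limma adjusted p = 0.000525). GLDT encodes the T protein of glycine decarboxylase, the mitochondrial complex that releases carbon dioxide and ammonia from glycine. It stood at 1.04, 0.66 and 0.71, and rose 1.74-fold (log2 0.80 ± 0.20, interval 1.33 to 2.28, limma adjusted p = 0.0069). Replicate 1 was its highest array, and without that array the call ended (log2 0.68, adjusted p = 0.0612 by limma).

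GLYK encodes glycerate kinase, which brings the carbon back into the Calvin cycle. Its ratios of 0.57, 0.48 and 0.49 were the smallest of the 6 on each red light array and differed little from each other. It rose 1.43-fold (log2 0.51 ± 0.05, interval 1.14 to 1.79, adjusted p = 0.0227 by limma), and this call ended without red light replicate 1 (adjusted p = 0.124), 2 (0.078) or 3 (0.074), with a common spread (log2 0.46, 0.0544) and with quantile normalization (0.43, 0.0973). Of all 7 measured photorespiration genes, these 3 among them, 5 were called higher in red light. In all, 6 of the 6 chosen genes were called higher in red light, where 18.8% of all genes were. Their median log2 ratio was 1.14, beside -0.02 over all genes, and all 6 were above 0 on all 3 red light arrays, as were 32.6% of all genes. RNA came from whole seedlings, so more cells that use a gene and more RNA per cell cannot be told apart. Because dark-grown Col-0 is present only as the second channel, its own spread does not enter these tests wherever arrays shared a control sample.

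**Figure D1:**
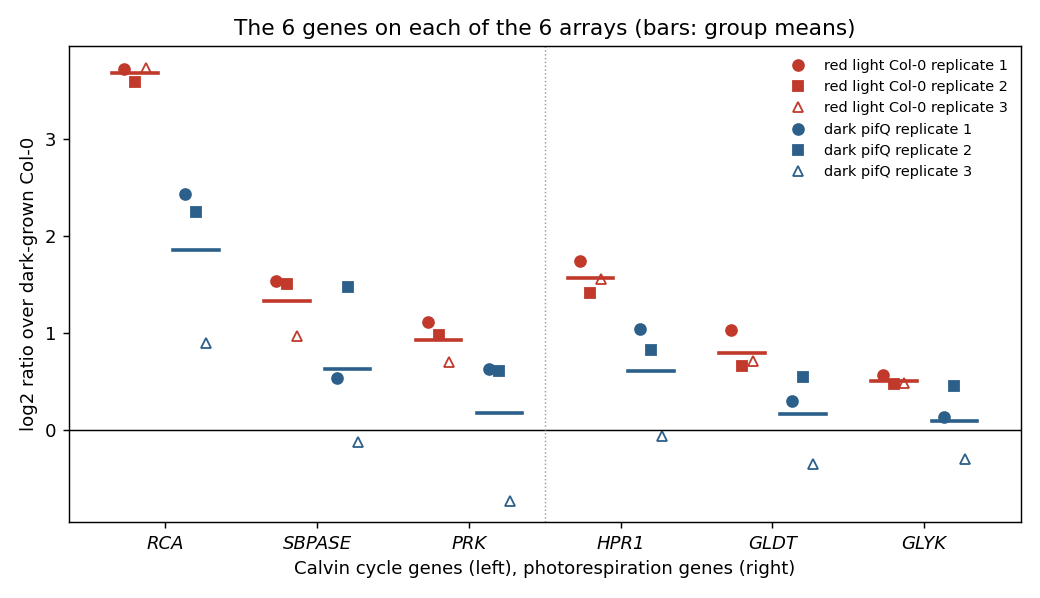
Log2 ratio over dark-grown Col-0 (vertical axis) of the 6 genes (horizontal axis) on each array, with red light Col-0 in red, dark pifQ in blue, a symbol per replicate and a bar at each group mean. Every red light point lies above 0, and pifQ replicate 3 is the lowest pifQ point for each gene, below 0 for all but RCA at 0.90.

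In dark-grown pifQ, RCA was the 1 gene of the 6 that was called higher than in dark-grown Col-0, where 4.59% of all genes were. Its log2 ratio was 2.44, 2.25 and 0.90 on pifQ replicates 1, 2 and 3. All 3 values were above 0, with replicate 3 well below the others, and all 3 were below every red light value. The mean of 1.86 ± 0.84 equals a 3.63-fold increase (95% interval 2.43 to 5.43, limma adjusted p = 0.00495), the 13th highest mean ratio of all genes in pifQ. Without pifQ replicate 3, its lowest array, the mean was 2.34 (limma adjusted p = 0.000115). It was 1.57 without pifQ replicate 1 and 1.67 without pifQ replicate 2, just under the threshold (limma adjusted p = 0.0449 and 0.0442).

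SBPASE stood at 0.54, 1.48 and -0.12 on pifQ replicates 1, 2 and 3. These values spread more widely than those of red light, and replicate 2 reached the red light range. The mean of 0.63 ± 0.80 was not called (limma adjusted p = 0.149), while without pifQ replicate 3 it was 1.01 and was called (adjusted p = 0.0345). It was 0.68 without pifQ replicate 1 and 0.21 without pifQ replicate 2, not called in either case (limma adjusted p = 0.294 and 0.56). PRK stood at 0.63, 0.62 and -0.72, so that replicates 1 and 2 nearly coincided and replicate 3 had the opposite sign. Its mean of 0.18 ± 0.78 was not called (limma adjusted p = 0.674), and its mean without pifQ replicate 3 of 0.62 was (adjusted p = 0.032). Without pifQ replicate 1 or 2 the PRK mean was -0.053 or -0.045 (limma adjusted p = 0.933 and 0.943).

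HPR1 stood at 1.05, 0.83 and -0.06 in pifQ, with replicate 3 again the low array. The mean of 0.61 ± 0.59 was not called (limma adjusted p = 0.0803). Without pifQ replicate 3 it was 0.94 and was called (adjusted p = 0.00698 by limma). It was 0.388 without pifQ replicate 1 and 0.495 without pifQ replicate 2, not called in either case (limma adjusted p = 0.331 and 0.268). At log2 0.61 it was called when the 25% of genes nearest 0 were left out (limma adjusted p = 0.0486). That filter used the tested ratios themselves, so this call adds no support. GLDT stood at 0.31, 0.55 and -0.34, with a mean of 0.17 ± 0.46 that was not called (adjusted p = 0.552) and of 0.43 without replicate 3 (adjusted p = 0.11, both by limma). GLYK stood at 0.14, 0.45 and -0.29, with a mean of 0.10 ± 0.37 (adjusted p = 0.68) and of 0.30 without replicate 3 (adjusted p = 0.198, both by limma).

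Of the 6 genes, 6 were above 0 on pifQ replicates 1 and 2, 5 were below 0 on replicate 3, and 1, RCA, was above 0 on all 3 pifQ arrays, as were 17.2% of all genes. Leaving out pifQ replicate 3 raised the number called higher from 1 to 4 of the 6 genes, while the share of all genes called higher went from 4.59% to 5.06%. Calls in either direction over all genes went from 841 to 718. Replicate 3 was the lowest pifQ array for all 6, so leaving it out raises their means. Without pifQ replicate 1 or 2 instead, 1 of the 6 was called, with 230 and 288 calls over all genes in either direction. The median of the 6 was log2 0.39 in pifQ, beside -0.04 over all genes. By array, this median was 1.33, 1.20 and 0.84 on red light replicates 1, 2 and 3, and 0.59, 0.73 and -0.20 on pifQ replicates 1, 2 and 3.

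The size of the drop on pifQ replicate 3 differed among the 6 genes. RCA was lower there than the mean of replicates 1 and 2 by a log2 difference of -1.44, PRK by -1.35, SBPASE by -1.13, HPR1 by -1.0, GLDT by -0.77 and GLYK by -0.59. Among all genes, whose median difference was 0.03, RCA lay at the 0.373rd percentile, PRK at the 0.47th, SBPASE at the 1.06th, HPR1 at the 1.55th, GLDT at the 3.41st and GLYK at the 6.50th. All 6 were lower on replicate 3 than on both other pifQ arrays, as were 32.3% of all genes, and 5 of 6 were lower by at least 0.5, as were 5.49%. Only GLYK missed that margin. The spots of repeated genes varied least on replicate 3 among the pifQ arrays (mean SD 0.068), and the part of array quality in the drop was not tested.

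**Figure D2:**
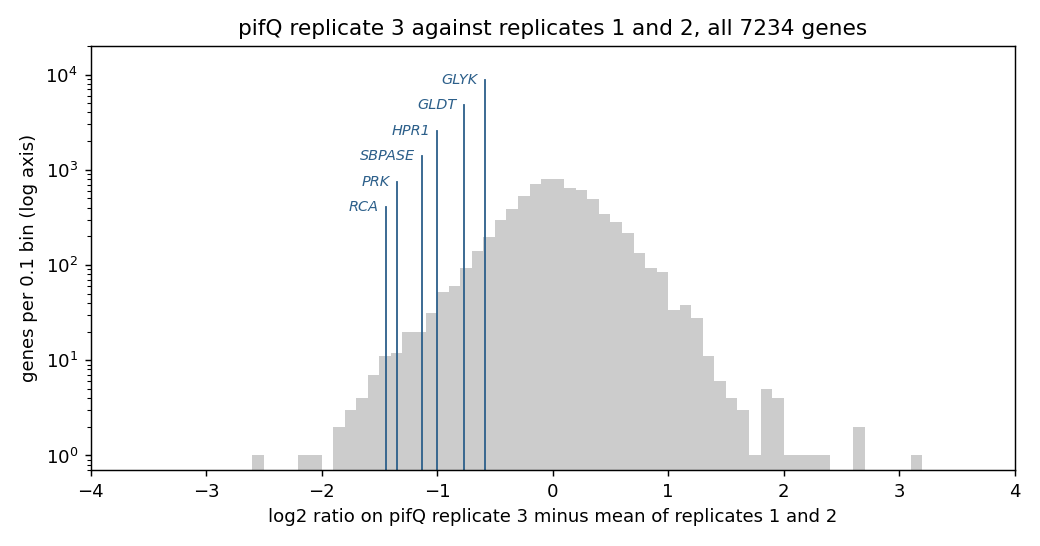
Number of genes (vertical log axis) by the log2 ratio on pifQ replicate 3 minus the mean of pifQ replicates 1 and 2 (horizontal axis), for all 7234 genes, with the 6 genes marked by blue lines, whose height carries no value. All 6 lie left of the median of 0.03, from GLYK at -0.59 to RCA at -1.44.

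The series names red-light-grown Col-0 against dark-grown pifQ as its comparison. In it the control channel cancels on average, but its variation remains where arrays had separate control samples. The sources used here do not give the number of control samples. RCA was the 1 of 6 genes called higher in red light, where 2.2% of all genes were. It was 3.54-fold higher than in pifQ (log2 difference 1.82, SE 0.36, 95% interval of the fold 2.01 to 6.24, limma adjusted p = 0.032). The red light arrays, at 3.59 to 3.74, did not overlap the pifQ arrays, at 0.90 to 2.44. The call ended with a common spread (log2 1.20, limma adjusted p = 0.349), with quantile normalization (0.66, 0.654), with all features tested (1.82, 0.117) and without any 1 of red light replicates 1, 2 and 3 or pifQ replicates 1 and 2 (adjusted p = 0.0532 to 0.118). It held without pifQ replicate 3, at log2 1.34 (adjusted p = 0.00576).

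HPR1 differed by log2 0.97 (SE 0.28, 95% interval 0.34 to 1.60, limma adjusted p = 0.108) and was called with array weights (log2 0.96, adjusted p = 0.0313). PRK differed by 0.76 (interval -0.03 to 1.55), SBPASE by 0.70 (-0.13 to 1.54), GLDT by 0.63 (0.08 to 1.18) and GLYK by 0.41 (-0.05 to 0.87), with limma adjusted p of 0.211 to 0.357 for these. The intervals are not adjusted for the number of genes. For 5 of 6 genes every red light array lay above every pifQ array, as for 13.2% of all genes. The exception was SBPASE, whose pifQ replicate 2 at 1.48 exceeded red light replicate 3 at 0.97. For PRK, GLDT and GLYK the gap was narrow: the lowest red light values were 0.71, 0.66 and 0.48, and the highest pifQ values 0.63, 0.55 and 0.45.

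**Figure D3:**
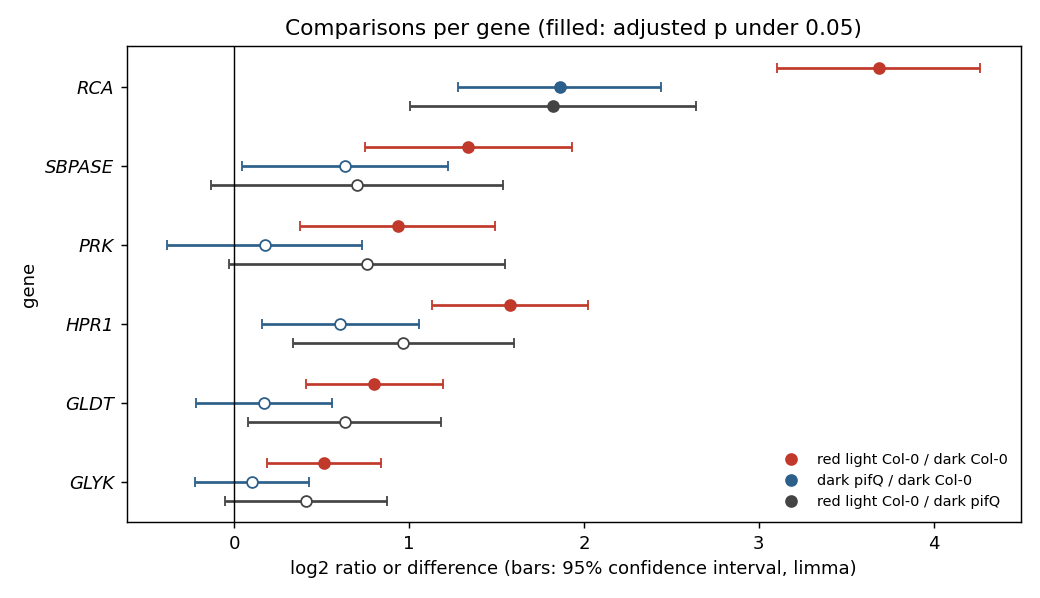
Log2 ratio or difference (horizontal axis) of each gene (vertical axis) with its 95% confidence interval from limma, for red light Col-0 over dark Col-0 (red), dark pifQ over dark Col-0 (blue) and red light Col-0 over dark pifQ (grey). Filled points passed an adjusted p of 0.05: all 6 genes in red light, and RCA alone in the other comparisons.

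The order of the 6 ratios was similar on most arrays. RCA had the highest ratio on all 6 arrays, and HPR1 or SBPASE the second highest. GLYK had the lowest ratio on 5 arrays, and on pifQ replicate 3 PRK was lowest. In red light the values of RCA did not overlap those of any other of the 6 genes, and those of GLYK, up to 0.57, stayed below the lowest GLDT value of 0.66. The neighbours in between overlapped: HPR1 (1.41 to 1.75) with SBPASE (0.97 to 1.54), SBPASE with PRK (0.71 to 1.12), and PRK with GLDT (0.66 to 1.04). In pifQ all neighbouring genes in that order overlapped. Ratios of different features can be compressed to different degrees, so this is an order of ratios on these features and not of transcript levels.

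Among all genes, RCA lay at the 99.8th percentile of mean log2 ratios in red light, HPR1 at the 97.9th, SBPASE at the 96.5th, PRK at the 92.6th, GLDT at the 90.4th and GLYK at the 83.3rd. In pifQ RCA lay again at the 99.8th, SBPASE at the 95.7th, HPR1 at the 95.3rd, PRK at the 77.3rd, GLDT at the 76.7th and GLYK at the 69.2nd. Both comparisons share the dark-grown Col-0 control, so these places are set side by side and not combined.

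**Figure D4:**
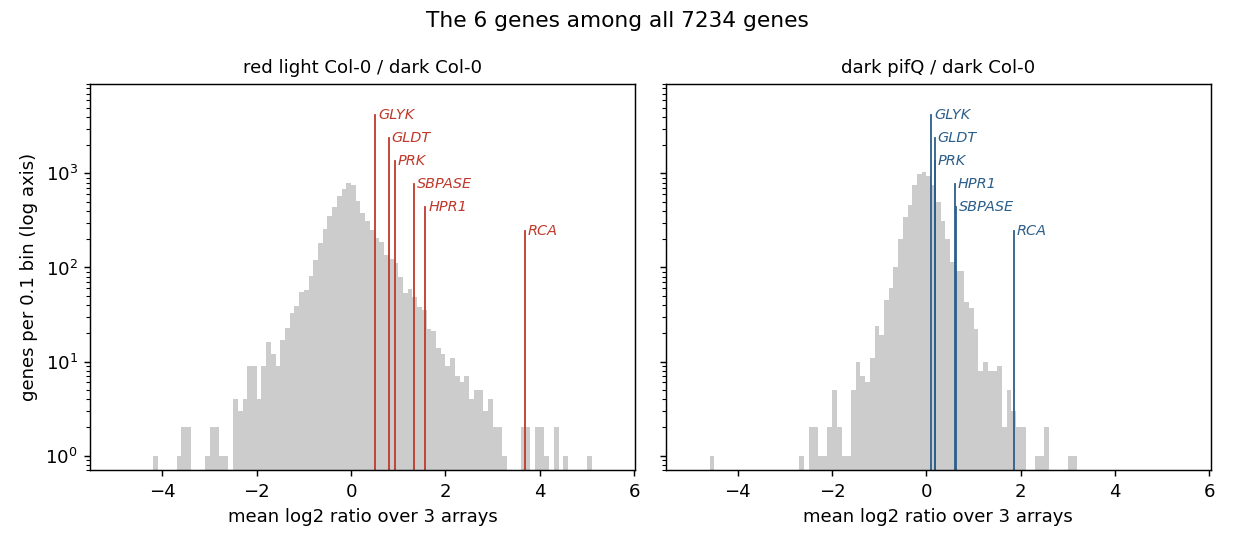
Number of genes (vertical log axis) by mean log2 ratio over 3 arrays (horizontal axis) in red light Col-0 (left) and dark pifQ (right), with the means of the 6 genes as lines, whose height carries no value. RCA, at 3.68 and 1.86, lies in the upper tail of both, while PRK, GLDT and GLYK, at 0.18, 0.17 and 0.10 in pifQ, lie within the bulk there.

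Other genes of these pathways were taken from lists of 25 Calvin cycle, 29 photorespiration, 13 Rubisco assembly and carbon dioxide supply, 9 stromal thioredoxin and 16 starch and sucrose genes. Beside the 6 genes, 11 were measured, and 8 of these rose in red light, where 18.8% of all genes did, with a median log2 ratio of 1.19 over the 11. In pifQ 2 of 11 were called higher (median 0.47), beside 4.59% of all genes. Between red light and pifQ 0 of 11 were called by limma, where 2.2% of all genes were called higher. Of the 11, 4 had an unadjusted limma p under 0.05, a looser threshold at which the share of all genes was not counted. In that comparison, array weights gave 2 calls, while calls over all genes in either direction went from 243 to 639. The test without the 25% of genes nearest 0, a filter on the tested ratios themselves, gave 1. No other Calvin cycle gene of the list was measured. The annotation used here names some of the genes by locus alone.

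Of 4 further photorespiration genes 2 rose in red light. LrgB (AT1G32080), also known as PLGG1, encodes the chloroplast envelope carrier of glycolate and glycerate. It stood at 1.19, 0.80 and 0.79 on red light replicates 1, 2 and 3 (mean 0.93 ± 0.23, limma adjusted p = 0.00365) and at 0.51, 0.31 and -0.36 on pifQ replicates 1, 2 and 3 (mean 0.15, adjusted p = 0.592). AT1G32470 stood at 1.64, 1.84 and 1.22 in red light (mean 1.57 ± 0.32, adjusted p = 0.000419) and at 0.46, 0.95 and 0.0032 in pifQ (mean 0.47, adjusted p = 0.139). The other 2 showed ratios near 0 in both groups. AT2G35120 had means of -0.01 in red light and 0.10 in pifQ, and AT1G79870 of 0.01 and 0.10, with limma adjusted p of 0.596 to 0.975.

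All 4 measured genes of the Rubisco assembly and carbon dioxide list rose in red light, by similar amounts. Cpn60beta2 (AT3G13470) encodes a subunit of the chloroplast chaperonin, which folds the large subunit of Rubisco. It stood at 2.11, 1.20 and 1.31 in red light (mean 1.54 ± 0.50, limma adjusted p = 0.00167). In pifQ it stood at 0.50, 1.67 and 1.50 (mean 1.22, adjusted p = 0.0178), so its pifQ replicate 3 was not the lowest array. AT5G28500 was called in both groups, at a mean of 1.49 ± 0.19 in red light (adjusted p = 0.000204) and 0.87 in pifQ (adjusted p = 0.0111, both by limma). AT3G47650 had means of 1.56 and 0.89 and AT5G51110 of 1.44 and 0.64, and neither was called in pifQ (limma adjusted p = 0.0735 and 0.0671). Without pifQ replicate 3 both were called in pifQ, AT3G47650 at log2 1.31 (adjusted p = 0.0171) and AT5G51110 at 0.89 (0.0267, both by limma). The AT5G28500 call in pifQ ended without pifQ replicate 1 (log2 0.70, adjusted p = 0.0686) or 2 (0.85, 0.0625), by limma. The Cpn60beta2 call in pifQ ended without pifQ replicate 2 (log2 1.00, adjusted p = 0.106 by limma) or 3 (1.08, 0.0594), with array weights (1.03, 0.0704) and with all features tested (1.22, 0.0638). With each array left out in turn, the number called in pifQ among the 11 genes was 0 to 5. It was 0 without pifQ replicate 2, 1 without pifQ replicate 1 and 5 without pifQ replicate 3. Over all genes, calls in either direction were 288, 230 and 718 without pifQ replicates 2, 1 and 3.

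Both measured stromal thioredoxin genes rose in red light. Thioredoxins f and m carry reducing power from the light reactions to stromal enzymes, among them the products of SBPASE and PRK. TRXF2 (AT5G16400) stood at 1.20, 1.42 and 0.95 in red light (mean 1.19 ± 0.23, limma adjusted p = 0.0128) and at 1.32, 1.63 and -0.16 in pifQ. Its pifQ replicates 1 and 2 lay within and above its red light range, and replicate 3 was below 0 (mean 0.93, adjusted p = 0.0727 by limma). Without pifQ replicate 3 the TRXF2 mean was 1.48 and was called (adjusted p = 0.00178 by limma). ATHM2 (AT4G03520), a thioredoxin m gene, had means of 0.63 ± 0.21 in red light (adjusted p = 0.0105) and 0.39 in pifQ (adjusted p = 0.121, both by limma). Its pifQ mean without pifQ replicate 3 was 0.57 and was called (limma adjusted p = 0.0484). The red light calls of both genes ended without red light replicate 1 or 2 and with quantile normalization, at adjusted p = 0.0593 to 0.0813, and that of TRXF2 also with all features tested (0.0539). DPE1 (AT5G64860), the disproportionating enzyme of starch breakdown in the chloroplast, had means of -0.17 and -0.09 and was not called (limma adjusted p = 0.274 and 0.645). Of the 11 genes, 8 had their lowest pifQ value on replicate 3, where 32.3% of all genes did.

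**Figure D5:**
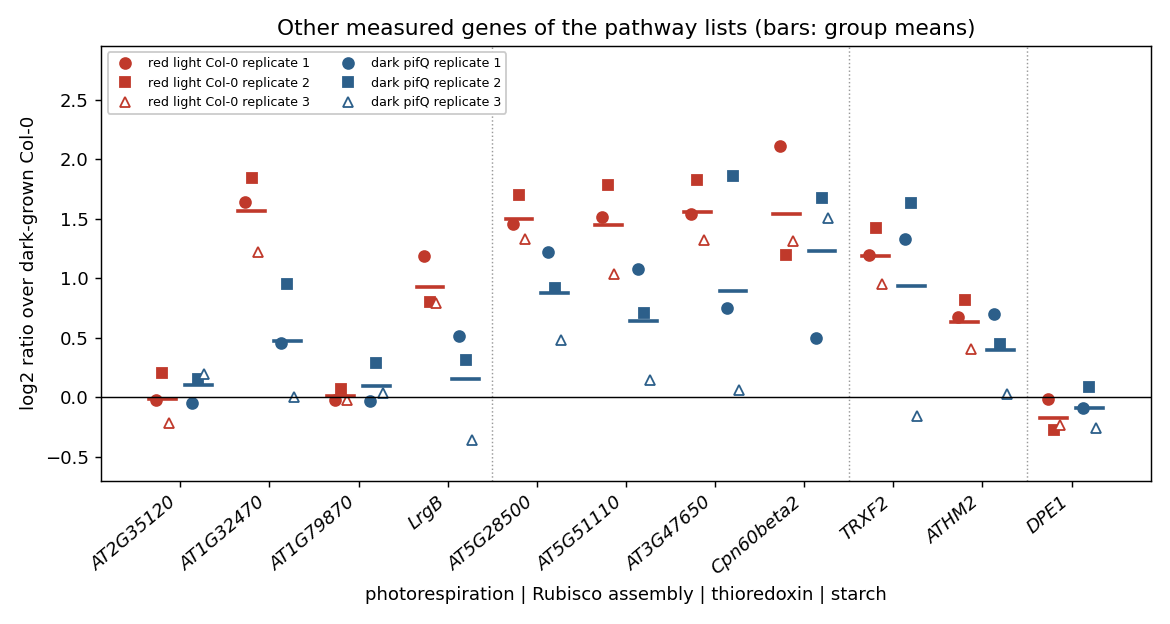
Log2 ratio over dark-grown Col-0 (vertical axis) on each array for the 11 other measured genes (horizontal axis, grouped by list), with red light Col-0 in red, dark pifQ in blue and bars at group means. The 3 genes near 0 in red light are AT2G35120, AT1G79870 and DPE1, and the other 8 have red light means of 0.63 to 1.57.

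The genes with the most similar values were found by the root mean square difference of log2 ratios over the 6 arrays. Nearest to RCA were PSBW (AT2G30570), a small subunit of photosystem II, at 0.38, and ECS1 (AT1G31580) at 0.51, and no gene came within 0.25. PSBW stood at 3.69, 4.39 and 3.86 in red light and at 2.28, 2.68 and 1.03 in pifQ, with the low pifQ replicate 3 that RCA also had. Nearest to PRK were AT5G07020 at 0.21 and LrgB at 0.22. PRK and LrgB lie near each other in the genome, with 1 protein-coding gene between them, and both had red light means of 0.94 and 0.93 and pifQ means of 0.18 and 0.15.

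SBPASE was closest to AT4G28080 (0.23) and AT3G15110 (0.25), and HPR1 to AT5G59250 (0.17) and AT1G74070 (0.22). GLDT was closest to AT3G55710 (0.15) and AT5G48220 (0.15), and GLYK to AT2G38330 (0.11) and YLMG2 (0.11). All 12 of these pairs correlated over the 6 arrays at r = 0.922 to 0.974, a description in which the 2 groups and their shared control enter every value. The pairs were picked for closeness on these same values, so a high r follows from the choice. The number of genes within 0.25 was 126 for GLYK, 31 for GLDT, 7 for HPR1, 4 for PRK and 1 for SBPASE.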

How the data were processed

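The authors deposited 1 table of log2 ratios, with 45220 features and 6 arrays; the labels give Cy5 for the sample and Cy3 for dark-grown Col-0 on every array, with no dye swap, so a dye effect cannot be set apart. The submitters' processing notes name limma without a version, and the sources used here do not give background correction, normalization or filters. Column medians were -0.00503 to -0.000361, so arrays appear centred, and the range of -5.63 to 7.85 is why the base was read as 2. Intensities were not used, so dim or saturated spots could not be told apart, and the number of arrays limits precision.

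Names came from the platform annotation (7440 features with 1 gene, 0 with several, 37780 unnamed here), and all 7440 matched TAIR10.1 by gene identifier. Features of a gene were averaged, giving 7234 genes. A linear model with 1 coefficient per group over all 6 arrays was fitted with lmFit and eBayes (limma 3.58.1, R 4.3.3) and was tested on simulated data. P-values are two-sided and adjusted over all 7234 genes by Benjamini-Hochberg, and a gene was called at an adjusted p under 0.05. Named are the 6 genes, other measured genes of the lists, and the 2 genes nearest each of the 6. Members and lists were chosen with earlier results of these data known. Deviations of same-numbered arrays from their group means correlated at r = -0.176, -0.148 and -0.167, and replicate numbers were not taken as pairs. Differently numbered arrays gave r = -0.111 to 0.256. Deviations from a group mean sum to 0, so these values cannot tell whether arrays of the groups were paired in another order. Promoter and protein sequences were not used here.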

Additional observations from a re-analysis of the deposited data

How the results depend on the processing

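The alternatives were centring, a common spread, quantile normalization, features not averaged, all features tested, leaving out the 25% of genes nearest 0, a robust prior, array weights, the compared group alone, the replicate number as a block, and each array left out in turn. RCA, SBPASE and HPR1 in red light, and RCA in pifQ, were called under all of the 16 alternatives. Of the 6 genes, 3 to 6 were called in red light with an array left out, and 1 to 4 in pifQ. Leaving out the 25% of genes nearest 0 gave 2 in pifQ. That filter used the tested ratios themselves, so its higher counts here and below add no support. Between red light and pifQ, 0 were called with a common spread, quantile normalization or all features tested, 2 with array weights, and 0 to 1 with an array left out. With the replicate block the counts for the 6 genes were 6, 1 and 1, as without it. Of the 11 other pathway genes, the pifQ calls numbered 1 with all features tested, 5 without the 25% nearest 0, 5 with the replicate block, and 0 to 5 with an array left out. Between red light and pifQ they numbered 1 without the 25% nearest 0, 2 with array weights and 1 with the replicate block. Signs turned only for values that were not called. AT2G35120 in red light became 0.009 with centring and ran from -0.118 to 0.09 with an array left out. AT1G79870 became -0.014 with quantile normalization and with array weights, and ran from -0.023 to 0.022 with an array left out. In pifQ, with an array left out, PRK ran from -0.053 to 0.625, LrgB from -0.025 to 0.41, GLDT from -0.019 to 0.427 and GLYK from -0.076 to 0.296, lowest without pifQ replicate 1 for PRK and LrgB and without pifQ replicate 2 for GLDT and GLYK, and highest without pifQ replicate 3. The causes were not tested. Over all genes, calls in red light ranged from 1432 without red light replicate 1 to 4508 with array weights (2731 as reported), and in pifQ they fell to 230 without pifQ replicate 1 and 443 with that group alone (841 as reported). Between red light and pifQ they ranged from 61 without red light replicate 1 to 639 with array weights (243 as reported). Testing all features gave 8431, 1846 and 525 calls. Leaving out the 25% of genes nearest 0 gave 891 in pifQ and 353 between red light and pifQ, and the replicate block gave 462 and 120. These calls over all genes are in either direction. Among the alternatives, the share of all genes called higher was counted only in pifQ without pifQ replicate 3.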

Other observations

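Markers of other tissues and reference genes were measured for few genes. The root hair expansin gene EXPA18, the 1 measured root marker of 6, had log2 means of -0.21 in red light and 0.23 in pifQ, and neither was called (limma adjusted p = 0.331 and 0.358). FMA (AT3G24140), a transcription factor gene of guard cell formation and the 1 measured stomatal marker of 4, rose in red light (log2 0.86, limma adjusted p = 0.00389) and had 0.19 in pifQ (adjusted p = 0.474). Of 5 seed reserve markers 0 were measured. Of 7 loci listed as references 2 were measured: AT4G34270 had means of -0.16 and -0.14 and was not called (limma adjusted p = 0.266 and 0.394), while AT5G60390 rose by log2 2.37 in red light and 1.57 in pifQ (adjusted p = 3.87e-05 and 0.0018). On pifQ replicate 3, where 5 of the 6 carbon fixation and photorespiration genes were below 0, AT5G60390 had its highest pifQ value, 2.07 beside 1.31 and 1.32 on replicates 1 and 2. The other reference, AT4G34270, stood at -0.129 there, between its values of -0.2594 and -0.045 on pifQ replicates 1 and 2. Also listed, with earlier results of these data known, were 6 genes of the light reactions: LHCB4.1, LHCB4.2, LHCB4.3, PSBW, PSBY and ATPC1. All 6 of these had their lowest pifQ value on pifQ replicate 3, as did 32.3% of all genes.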
